A study of Sus scrofa with 12 samples.

Results

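The 40 genes described here carry out the DNA synthesis phase (S phase) and mitosis of the cell cycle, and were measured in the jejunal mucosa of 12 pigs. They were chosen by name, with earlier results of these data known: 19 act in S phase and 21 in mitosis. A probe set, a group of short array probes designed against 1 transcript, was found for 38 of the 40, out of 12579 genes tested. All 19 S phase genes and 19 of the 21 mitotic genes were measured, and CCNA2 and KIF20A have no probe set named here. Each gene was read from its probe set of highest mean over the 12 arrays, and all 38 passed the filter on low values, a mean above the 25th percentile of all probe sets (2.29 log2 units). AURKA was found under its older symbol STK6.

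The pigs were 140 days old. Per the labels, 6 had high and 6 had low feed efficiency, and each group held 3 males and 3 females. The pigs are called H1 to H6 (high) and L1 to L6 (low), with males numbered 1 to 3 and females 4 to 6 in each group. The numbers only name pigs and pair none of them. Total RNA of each pig went to 1 Affymetrix Snowball array, so differences between arrays of 1 group include both animal and technical spread. The labels used here do not say how efficiency was measured, nor the breed or the feed.

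The jejunal lining is renewed throughout life. Stem cells and their early progeny divide in the crypts, and their descendants stop dividing as they move onto the villi, where mature enterocytes absorb nutrients. Lymphocytes of the gut wall can divide as well. Before a cell copies its DNA, the origin recognition machinery, CDC6 and CDT1 load the ring of MCM2 to MCM7 onto DNA, and cyclin E with its kinase starts synthesis. Most mitotic genes are transcribed later, in G2, and their products (cyclin B with CDK1, the Polo and Aurora kinases, kinetochore proteins and the spindle checkpoint) separate the copied chromosomes. RNA of whole mucosa averages over all its cells, so fewer dividing cells and less of a transcript per dividing cell cannot be told apart.

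The tissue label was checked against marker genes. All of the 15 measured enterocyte markers were above the floor of the scale, with a mean over the list of 9.83 to 11.00 log2 units in 11 pigs and 8.66 in H1. H1 also had the highest mean of 7 stomach markers, 7.85 against 4.51 to 5.65 in the other pigs. The spread of all values on an array (its SD) ran from 2.14 to 2.27 in the high and from 2.22 to 2.28 in the low group. The feed efficiency difference changed sign with array spread in the model for 13 of the 38 genes (34.2%), against 33.2% of all genes tested.

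The mitotic genes varied more between pigs than the S phase genes. The median gene SD over the 12 pigs was 0.37 log2 units for the mitotic genes, 0.23 for the S phase genes and 0.28 for all genes tested. The mean of the 19 mitotic genes ran from 5.47 in H1 to 6.30 in L2, a 1.79-fold range of signal. The mean of the 19 S phase genes ran from 6.05 in H6 to 6.40 in L2, a 1.28-fold range. L2 had the highest value of the 12 pigs for 10 of 19 mitotic genes and for 3 of 19 S phase genes. H1 had the lowest value for 9 of 19 mitotic and 2 of 19 S phase genes. The largest gene range was 4.35-fold for TTK, the spindle checkpoint kinase also called MPS1, and the next was 4.18-fold for CDK1, the kinase that drives entry into mitosis.

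**Figure D1:**
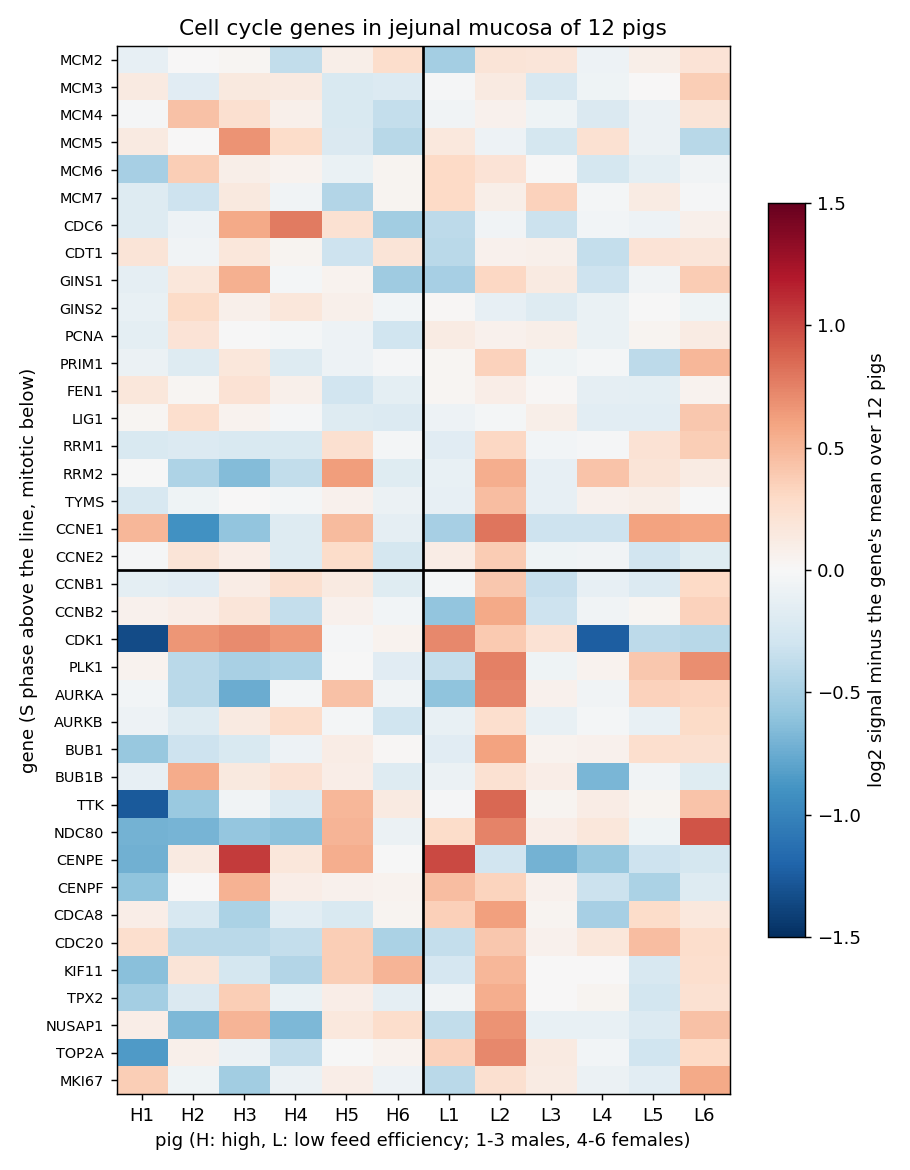
Log2 signal of each of the 38 measured genes (rows) in each of the 12 pigs (columns), minus the gene's own mean over the 12 pigs, with red above and blue below that mean. L2 is high for most mitotic genes, H1 is low for CDK1, TTK and TOP2A, and the S phase rows are paler.

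By feed efficiency, no gene of either class passed the adjusted threshold. The mitotic genes had lower means in the high group for 14 of 19 genes, with a median difference (high minus low) of -0.11 log2 units. This count takes the sign of the brightest probe set. CCNB1 and CCNB2 were near 0 (-0.00063 and 0.0063), and the CDK1 probe sets differed in sign. The S phase genes had lower means for 11 of 19, with a median of -0.02. Over all 12579 genes tested the median was -0.03, and 57.2% of them were lower in the high group, against 73.7% of the mitotic and 57.9% of the S phase genes. The mean over the 19 mitotic genes was 5.74 ± 0.173 in the high and 5.89 ± 0.244 in the low group (SD, n = 6 each), a difference smaller than the SD within either group. With array spread in the model 11 of the 19 were lower, with a median of -0.02, while 50.1% of all genes were. The mitotic median was -0.18 with the mean over a gene's probe sets and -0.26 with its probe set of largest SD. Leaving out single pigs moved it from -0.20 (without L1) to -0.04 (without L2). Without L2 the low group's mean was 5.81, and without H1 the high group's was 5.79. The S phase mean was 6.18 ± 0.079 in the high and 6.22 ± 0.124 in the low group.

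With limma and Benjamini-Hochberg adjustment over 35791 probe sets, 0 of all probe sets (0%) and 0 of the 38 genes passed, and the lowest adjusted p among the 38 was 0.621. At an unadjusted p under 0.05, 4 of the 38 were lower in the high group, against 4.35% of all genes tested, and 0 were higher, against 2.79%. The 4 were NDC80, PLK1, BUB1 and MCM7. Further probe sets of CDK1 (lower) and MCM5 (higher) also had an unadjusted p under 0.05. They are not in this count, which reads each gene from its set of highest mean. This count depended on single pigs: it was 1 without L2, 2 without H2, H4, L3 or L6, and 7 without H5. With array spread in the model it was 1, namely MCM7. The pigs of the 2 groups overlapped for each of the 38 genes, while 0.238% of all genes tested had no overlap. The standard error of a difference was 0.10 to 0.38 log2 units over the 38 genes.

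**Figure D2:**
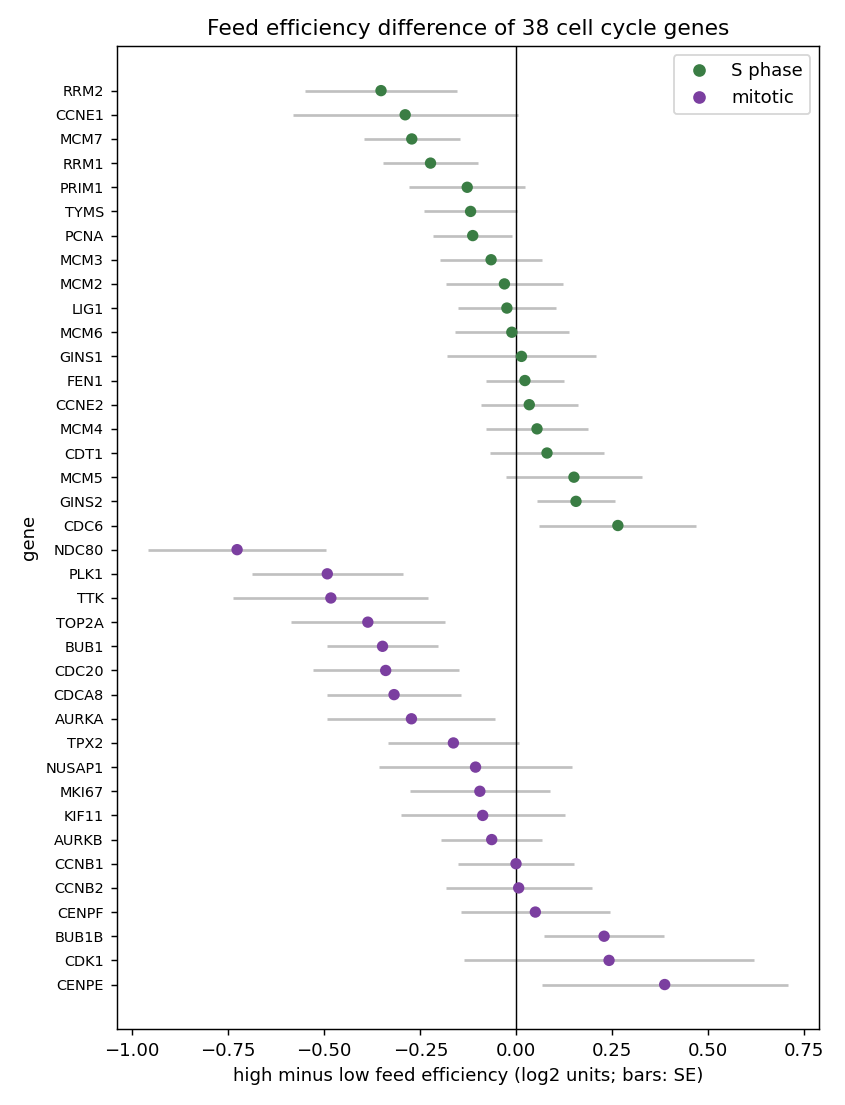
Difference in log2 signal between high and low feed efficiency (points, high minus low, sex in the model) with its standard error (bars) for the 19 S phase and the 19 mitotic genes, sorted within each class. NDC80 at -0.73 lies farthest below 0 and CENPE at 0.39 farthest above it, and none passed the adjusted threshold.

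Of the licensing genes, which load the replicative helicase, 4 of 8 were lower in the high group. MCM7, a subunit of the helicase ring, ran from 8.71 to 9.31 with a median of 9.03 in the high group, and from 9.13 to 9.51 with a median of 9.26 in the low group. Of the high pigs, H3 alone lay above the low median. The difference was -0.27 (SE 0.125, limma adjusted p = 0.639). The other 4 probe sets named MCM7 gave differences of -0.22, -0.04, 0.10 and 0.31, and their values over the 12 pigs correlated with those of the brightest set at r of -0.18 to -0.08. The direction given for MCM7 thus holds for 3 of its 5 probe sets. The brightest gave -0.41 with array spread in the model.

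MCM2, a subunit of the same ring and a common proliferation marker, ran from 4.79 to 5.41 with a median of 5.17 in the high group. In the low group it ran from 4.64 to 5.36 with a median of 5.29. The groups covered the same range, and the difference was -0.03 (SE 0.152, adjusted p = 0.975), or 0.14 with array spread in the model. MCM5 differed by 0.15 and MCM4 by 0.05, and both turned with array spread in the model, to -0.18 and -0.11. The further MCM5 probe sets gave 0.01 and 0.48, the latter at a limma unadjusted p of 0.0418. MCM3 differed by -0.07 and MCM6 by -0.01, or by -0.22 and -0.04 with array spread, and MCM6 was at 0.11 without H1. CDC6, a loading factor for the ring, was 5.09 ± 0.487 in the high and 4.83 ± 0.184 in the low group, a difference of 0.26 (SE 0.204, adjusted p = 0.761), or -0.05 with array spread in the model. Its highest values were 5.74 in H4 and 5.53 in H3, and its lowest was 4.44 in H6, so the high pigs held both ends of the range. CDT1, its partner in loading, differed by 0.08.

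The 6 genes of helicase activation and fork synthesis split evenly, with 3 higher and 3 lower. PCNA, the sliding clamp of the DNA polymerases, ran from 8.55 to 9.06 with a median of 8.80 in the high group, and from 8.75 to 8.97 with a median of 8.93 in the low group. H2 was the highest and H6 the lowest of all pigs, so the low group lay inside the range of the high group. The difference was -0.11 (SE 0.103, adjusted p = 0.800), and it was 0.02 after quantile normalization. The further PCNA probe sets gave 0.13 and -0.21. FEN1, the nuclease that trims Okazaki fragments, ran from 6.33 to 6.83 with a median of 6.67 in the high group and from 6.47 to 6.72 with a median of 6.64 in the low group, a difference of 0.02, or -0.11 with array spread in the model. LIG1, which seals those fragments, differed by -0.02, and PRIM1, the primase subunit that starts them, by -0.13. The GINS subunits, parts of the active helicase, differed by 0.01 for GINS1 and 0.16 for GINS2.

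All 3 genes of nucleotide supply were lower in the high group by their brightest probe sets, and none passed. RRM1, the large subunit of ribonucleotide reductase, was at 7.28 to 7.32 in H1 to H4, 7.49 in H6 and 7.76 in H5. In the low group it ran from 7.35 to 7.89 with a median of 7.61. H5 alone of the high pigs lay above that median, and the difference was -0.22 (SE 0.124, adjusted p = 0.683). RRM2, the small subunit, ran from 3.67 to 4.95 with a median of 4.05 in the high group and from 4.20 to 4.87 with a median of 4.49 in the low group, and H5 was the highest of all 12 pigs. Its difference was -0.35 (SE 0.197, adjusted p = 0.684). The further RRM2 probe sets gave -0.51 and 0.24, and the latter correlated with the brightest at r = -0.309. That set had a mean of 2.49, near the filter threshold. Both subunits followed array spread over the 12 pigs, with r = 0.84 for RRM1 and 0.86 for RRM2. With array spread in the model the differences were -0.02 for RRM1 and 0.10 for RRM2. TYMS, thymidylate synthase, differed by -0.12, or by -0.03 with array spread, and stood at 7.94 in L2 against 7.35 to 7.57 in the other low pigs.

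CCNE1, a cyclin E that drives entry into S phase, had the largest SD of the S phase genes. It ran from 3.79 to 5.19 with a median of 4.53 in the high group and from 4.20 in L1 upward with a median of 4.84 in the low group. L2, L5 and L6 were above 5, as were H1 and H5 of the high pigs. The difference was -0.29 (SE 0.293, adjusted p = 0.825). It was -0.47 without H1 and turned to 0.21 with array spread in the model. CCNE2, the other cyclin E, differed by 0.03, or by 0.19 with array spread.

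Among the cyclins and kinases of G2 and mitosis, PLK1 differed most. PLK1, the Polo kinase, matures centrosomes and acts at kinetochores and in cytokinesis. Its signal was 7.90 in H1, 7.44 in H2, 7.36 in H3, 7.39 in H4, 7.84 in H5 and 7.68 in H6. Of the low pigs, it was 7.49 in L1, 8.60 in L2, 7.78 in L3, 7.90 in L4, 8.25 in L5 and 8.54 in L6. Every high pig was under 8.07, the median of the low pigs, while L1 and L3 lay within the high range and L4 lay level with H1, the highest of the high pigs. The difference was -0.49 (SE 0.197, limma adjusted p = 0.630). A second PLK1 probe set gave -0.41 and followed the first over the pigs at r = 0.927. PLK1 also followed array spread, at r = 0.714, and differed by -0.20 with that spread in the model.

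CDK1 has 4 probe sets, and they did not show the same pattern. The brightest ran from 5.34 in H1 to 7.39 in H3 in the high group, with a median of 7.03. In the low group it ran from 5.44 in L4 to 7.40 in L1, with a median of 6.59. H1 and L4 lay far below the other 10 pigs, the lowest of which was L6 at 6.26, and the difference was 0.24 (SE 0.377, adjusted p = 0.894), or 0.62 without H1 and 0.08 with array spread in the model. The other 3 probe sets were lower in the high group, by -0.41 (limma adjusted p = 0.655), -1.55 (limma adjusted p = 0.60) and -0.59 (limma adjusted p = 0.621). The second of these fell to 2.29 in H3, where the brightest set was at its highest for the high group. Their correlations with the brightest set over the 12 pigs were 0.30, -0.35 and 0.07. No direction is therefore given for CDK1.

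**Figure D3:**
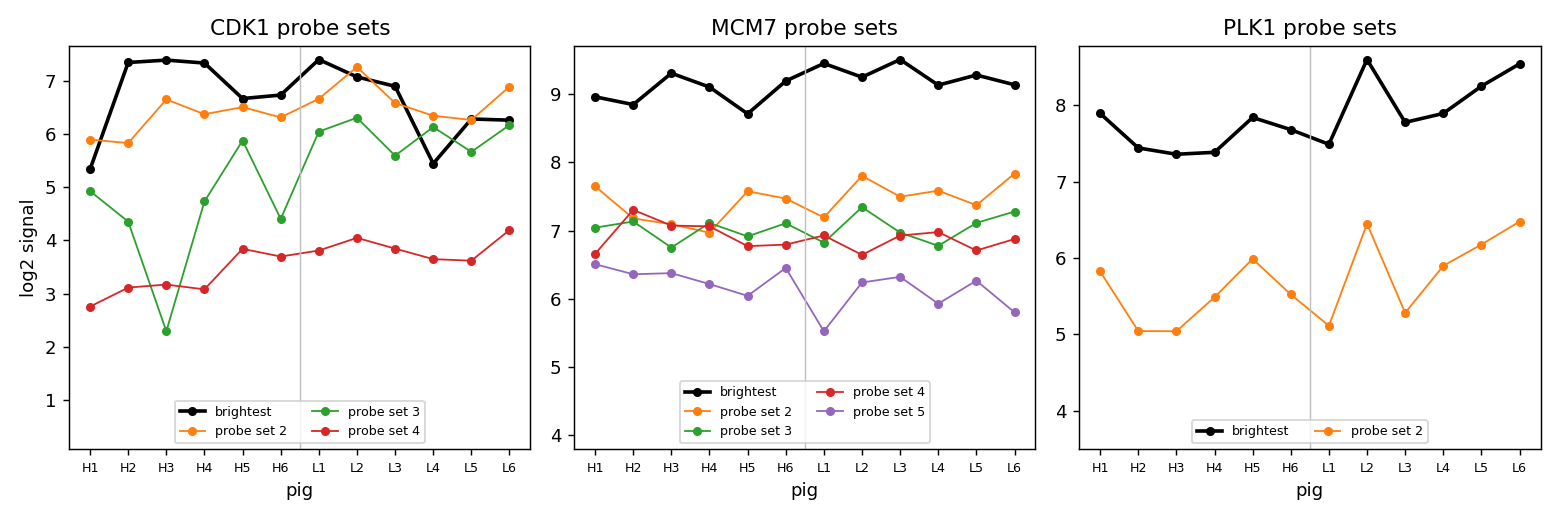
Log2 signal of every tested probe set of CDK1, MCM7 and PLK1 (panels) in each of the 12 pigs, with the brightest set as a thick black line and the others as thin lines. The 2 PLK1 sets rise and fall together, whereas the CDK1 and MCM7 sets do not, and CDK1 probe set 3 drops to 2.29 in H3. Heights of different lines are not comparable.

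The B cyclins, partners of CDK1, had nearly equal means in the groups by their brightest probe sets, with differences of -0.00063 for CCNB1 and 0.0063 for CCNB2. The second probe sets gave -0.16 for CCNB1 and -0.37 for CCNB2. The brightest CCNB2 set gave 0.17 with array spread in the model. The Aurora kinases act at spindle poles (AURKA) and at centromeres (AURKB). AURKA was 5.69 ± 0.399 in the high and 5.97 ± 0.455 in the low group, a difference of -0.27 (SE 0.219, adjusted p = 0.771), which turned to 0.16 with array spread in the model. AURKB ran from 6.79 to 7.35 with a median of 7.04 in the high group and from 6.98 to 7.38 with a median of 7.02 in the low group. Its pigs of the 2 groups overlapped almost fully, and the difference was -0.06 (SE 0.132), or -0.18 with array spread in the model. Its 2 other probe sets gave -0.44 and 0.18.

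The 8 genes of the kinetochore, the spindle checkpoint and mitotic exit had a median difference of -0.33, with 5 lower and 3 higher. NDC80, which links kinetochores to spindle microtubules, had the lowest p of the 38 genes by their brightest probe sets (limma unadjusted p = 0.00816). Further CDK1 sets had lower ones, of 0.00324 and 0.00692. The NDC80 signal was 2.88 in H1, 2.90 in H2, 3.01 in H3, 2.98 in H4, 4.10 in H5 and 3.51 in H6. The low pigs stood at 3.87 (L1), 4.34 (L2), 3.69 (L3), 3.76 (L4), 3.53 (L5) and 4.54 (L6). H1 to H4 lay together near the low end of the scale, H6 lay just under the lowest low pig, and H5 lay under only L2 and L6 of the low pigs. The difference was -0.73 (SE 0.231, limma adjusted p = 0.621), and -0.68 without H1. NDC80 followed array spread at r = 0.783, and with that spread in the model the difference was -0.33.

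BUB1, a kinase of the spindle checkpoint, ran from 5.34 to 6.02 with a median of 5.76 in the high group. The low pigs ran from 5.73 to 6.52 with a median of 6.06. Every high pig was under the median of the low pigs, and the difference was -0.35 (SE 0.146, limma adjusted p = 0.630). With array spread in the model it was -0.18, and its 2 other probe sets gave -0.26 (r = 0.398 to the first) and 0.10 (r = -0.248). The last of these had a mean of 2.29, near the filter threshold. TTK, the checkpoint kinase, ran from 3.90 in H1 to 5.66 in H5 in the high group and from 5.14 to 6.02 in the low group, a difference of -0.48 (SE 0.254, adjusted p = 0.670), or -0.29 without H1 and -0.22 with array spread in the model.

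BUB1B, the checkpoint protein BubR1, went the other way from BUB1, with a difference of 0.23 (SE 0.155, adjusted p = 0.733). CENPE, a kinetochore motor, ran from 3.83 in H1 to its highest value in H3 with a median of 4.70 in the high group. In the low group it ran from 3.84 to 5.54 with a median of 4.26. L1, at 5.54, stood apart from the other low pigs, which lay between 3.84 and 4.30. The difference was 0.39 (SE 0.320, adjusted p = 0.778), or 0.61 without H1 and 0.25 with array spread in the model. A further CENPE probe set gave -0.03. CENPF, a large kinetochore protein, ran from 4.41 to 5.54 with a median of 5.07 in the high group and from 4.53 to 5.47 with a median of 4.94 in the low group, a difference of 0.05, or 0.22 without H1 and -0.01 with array spread. CDCA8, the complex partner of AURKB also called borealin, differed by -0.32. CDC20, which activates the ubiquitin ligase that ends mitosis, differed by -0.34. Neither passed, and with array spread in the model they differed by -0.08 and -0.03.

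All 5 measured genes of the spindle and chromosome structure had lower means in the high group. TOP2A, the topoisomerase that untangles copied chromosomes, ran from 6.13 in H1 to 7.05 in H2 with a median of 6.94 in the high group. The low pigs ran from 6.68 to 7.70. As for PLK1, BUB1 and CDCA8, every high pig was under the median of the low pigs. The share of all genes ordered this way is not given here. The TOP2A difference was -0.39 (SE 0.20, limma adjusted p = 0.667). It was -0.23 without H1 and -0.24 with array spread in the model, and the second TOP2A probe set gave -0.19 with r = 0.870 to the first. MKI67, which encodes the proliferation marker Ki-67, ran from 5.65 to 6.53 with a median of 6.09 in the high group and from 5.76 to 6.73 with a median of 6.18 in the low group. The groups overlapped over most of that range, and the difference was -0.09 (SE 0.182, adjusted p = 0.917), or -0.20 without H1 and 0.09 with array spread in the model. H1, the lowest pig for TOP2A, was the second highest for MKI67. TPX2, a spindle assembly factor, differed by -0.16, NUSAP1, a microtubule-binding spindle protein, by -0.11, and KIF11, the motor that pushes spindle poles apart, by -0.09. NUSAP1 and KIF11 turned to 0.12 and 0.27 with array spread in the model, and without H1 TPX2 was at -0.06 and KIF11 at 0.02.

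**Figure D4:**
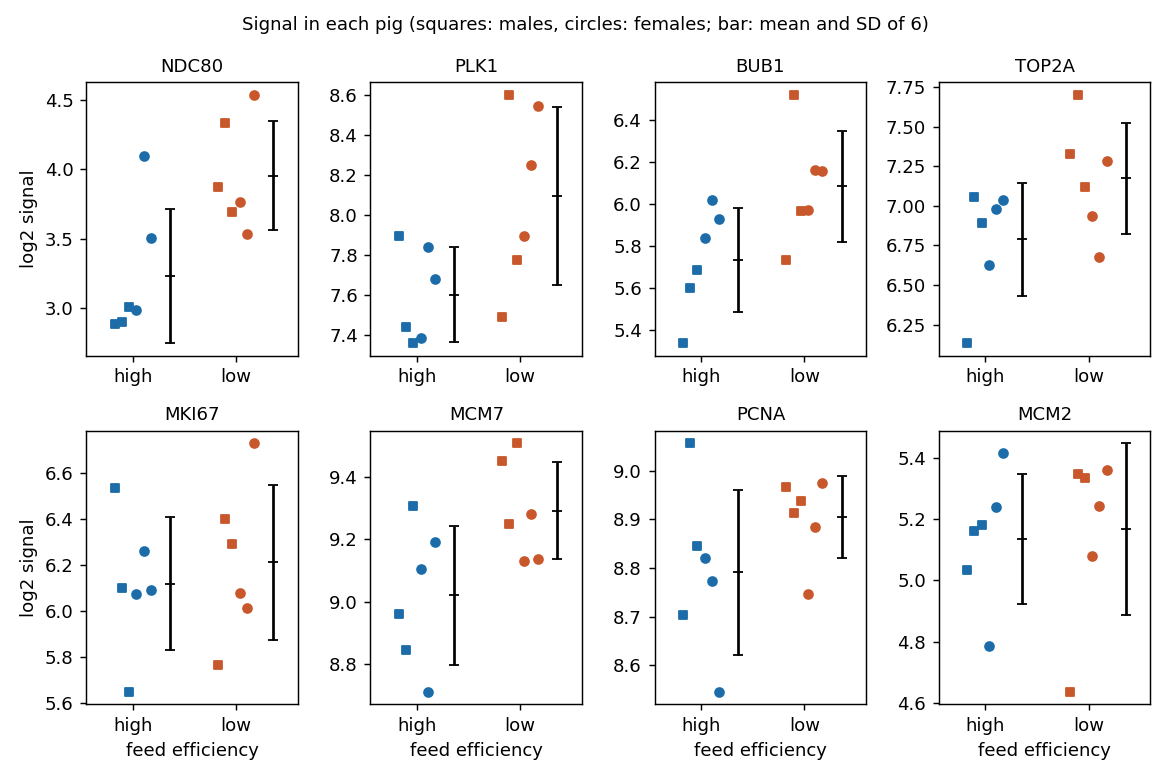
Log2 signal of 4 mitotic genes (NDC80, PLK1, BUB1, TOP2A), the marker MKI67 and 3 S phase genes (MCM7, PCNA, MCM2) in each pig by feed efficiency group, with squares for males, circles for females and bars for the mean and SD of 6. The groups overlap in every panel, and for PLK1, BUB1 and TOP2A each high pig lies under the median of the low pigs. Each panel has its own scale.

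In males, the mitotic genes lay lower in the high group for 16 of 19 genes, against 6489 of all 12579 genes tested. Their median difference was -0.31 log2 units, against -0.01 over all genes tested. At an unadjusted p under 0.05, 5 of the 38 genes (13.2%) were lower in the high males, against 5.51% of all genes tested. These were NDC80 (-1.04, SE 0.314), TTK (-0.92, SE 0.327), TOP2A (-0.69, SE 0.265), CDCA8 (-0.54, SE 0.239) and BUB1 (-0.53, SE 0.199), with adjusted p from 0.401 to 0.565. Each group of males held 3 pigs, and the groups did not overlap for 5 of the 38 genes (RRM1, BUB1, TTK, NDC80 and TOP2A), a share of 13.2% against 14.5% of all genes tested. H1 was the lowest of all 12 pigs for TTK, TOP2A, NDC80 and BUB1, and L2 the highest for TTK, TOP2A, CDCA8 and BUB1. Without H1 the median was -0.15 and 2 genes had an unadjusted p under 0.05, and without L2 that count was also 2. Over all genes tested, in either direction, 8.74% of genes had such a p in males, and 9.40% without H1. With array spread in the model the median was -0.18 and no mitotic gene did, while 1 S phase gene and 11.6% of all genes did.

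In females 13 of 19 mitotic genes were lower in the high group. Their median difference was -0.08, against -0.05 over all genes tested. In females 0 of the 38 genes had an unadjusted p under 0.05, against 4.62% of all genes tested. The difference between the sexes was tested with an interaction term, for which 0 of the 38 had an unadjusted p under 0.05, against 6.7% of all genes. It was 3 without H3 and 1 without H2, L2, L3 or L6. The lowest was CENPF, at -0.31 in males and 0.41 in females (limma adjusted p = 0.746). The median S phase difference was 0.02 in males and -0.12 in females. For none of the 38 genes did the feed efficiency difference differ detectably between males and females at 3 pigs per group and sex.

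By sex, 6 of all probe sets tested (0.0168%) passed the adjusted threshold, and none of the 38 genes did. At an unadjusted p under 0.05 the count was 0 of 38, against 8.97% of all genes tested. It was 4 without H1, 3 without L2 and 1 without H5. FEN1 had the lowest p, with a difference of 0.19 (male minus female, SE 0.102, limma adjusted p = 0.571). Males were higher for 11 of 19 S phase and 9 of 19 mitotic genes.

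Over the 12 pigs, the mean of the S phase genes and that of the mitotic genes had a Pearson r of 0.713 and a Spearman rho of 0.538. These are descriptions, because both means come from the same arrays. The relation rested on a pair of low pigs, L2 and L6, which had the highest values of both means. Without them r was 0.163 (n = 10), and without L2 alone it was 0.497.

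**Figure D5:**
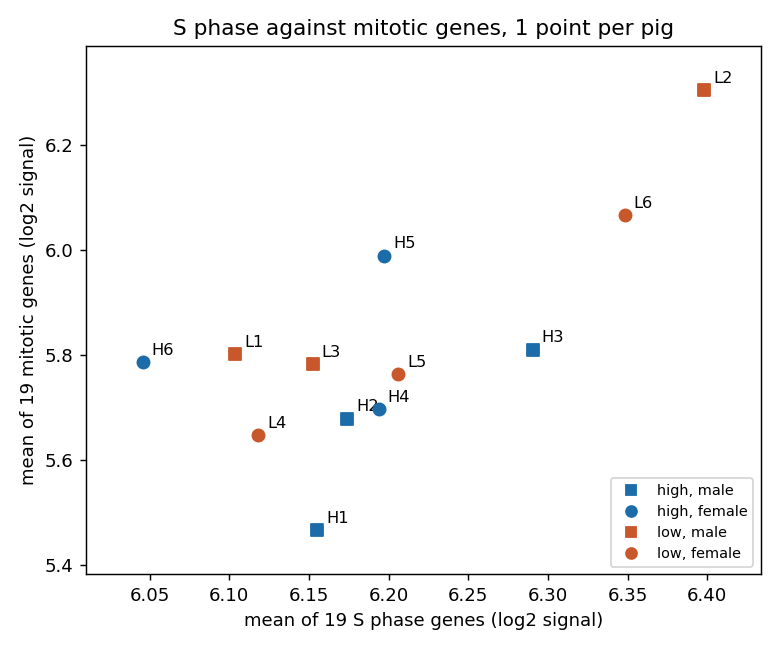
Mean log2 signal of 19 S phase genes (horizontal) against that of 19 mitotic genes (vertical), 1 point per pig, blue for high and orange for low feed efficiency, squares for males and circles for females. L2 and L6 lie at the upper right, H1 is the lowest at 5.47 on the vertical axis, and the other 9 pigs form a cloud with little slope.

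Single genes of a class did not all move together. Within the mitotic class the median r over 171 gene pairs was 0.32, and 26.3% of pairs had an r above 0.5. Within the S phase class the median was 0.15 and 12.3% of pairs were above 0.5, and between the classes the values were 0.17 and 18.0%. Over all pairs of the 12579 genes tested the median was 0.01, and 9.76% were above 0.5. The highest r was 0.907, between BUB1 and TTK, a pair of checkpoint kinases. The next were 0.901 between MCM6 and CDK1 and 0.879 between RRM1 and PLK1, pairs that cross the classes. The lowest was -0.684, between CENPE and MKI67.

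The commonly used markers of proliferation, read from their brightest probe sets, did not rank the pigs alike. MKI67 correlated with PCNA at r = 0.014 and with TOP2A at 0.019, and PCNA correlated with MCM2 at -0.14 (n = 12 each). Spearman rho was 0.084, 0.273 and 0.035 for these pairs. Leaving out the 2 pigs farthest from the median gave r of -0.014, 0.291 and 0.135. MKI67 correlated with the mean of the other mitotic genes at 0.20, TOP2A at 0.78, TTK at 0.85, and BUB1 and TPX2 at 0.81. CDK1, read from its brightest probe set, correlated at 0.17 and CENPE at 0.01.

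A different pattern joined genes of both classes. Its pairs were picked for their high r, so their r values are descriptions. PLK1 correlated with CCNE1 at 0.844, with AURKA at 0.826 and with CDC20 at 0.824, and CCNE1 correlated with AURKA at 0.852. These 4 genes were above their means in L2, L5 and L6, and below them in H2, H3 and L1. The brightest CDK1 probe set ran against them, with r = -0.44 to PLK1 and -0.60 to CDC20, and it followed CENPF at 0.860. Array spread moved with the first pattern, at r = 0.714 for PLK1, 0.761 for AURKA, 0.70 for CDC20 and 0.640 for CCNE1. Over all 19 mitotic genes 7 had an r with array spread above 0.5 (36.8%), as did 3 of 19 S phase genes (15.8%) and 21.9% of all genes tested. The part of array spread in these patterns was not tested beyond the model that contains it.

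For the 18 genes with more than 1 tested probe set, 29 further probe sets were compared with the brightest. Of these, 18 had a feed efficiency difference of the same sign, 11 had an r above 0.5 with the brightest and 7 had an r below 0. The median r was 0.398. The closest to the brightest were further sets of PLK1 (r = 0.927), TOP2A (0.870), TPX2 (0.826 and 0.688), CCNB1 (0.714), MKI67 (0.698) and AURKA (0.689). CDK1, MCM7, RRM2 and BUB1 each had at least 1 that did not follow it. Those of RRM2 and BUB1 had means of 2.49 and 2.29, near the filter threshold of 2.29 log2 units.

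Other genes of the cycle were read from the same fit. Of 57 further mitotic genes 50 were measured, and 39 of them were lower in the high group, with a median of -0.10 (78.0% lower, against 57.2% of all genes tested). At an unadjusted p under 0.05, 2 of them (4.0%) were lower, against 4.35% of all genes: NCAPH, a condensin subunit, by -0.27, and BIRC5, the AURKB partner survivin, by -0.39, with adjusted p of 0.638 and 0.639. PBK, a mitotic kinase, differed by -0.31. The list's mean followed the mean of the 19 mitotic genes at r = 0.901 over the pigs, and at 0.777 without L2 and H1.

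Of 50 further replication genes 39 were measured, and 24 were lower, with a median of -0.10 (61.5% lower). At an unadjusted p under 0.05, 2 (5.13%) were lower. TIPIN, a fork protection factor, differed by -0.57 (SE 0.228, adjusted p = 0.630). RFC1, the large subunit of the clamp loader, differed by -1.86 (SE 0.771, adjusted p = 0.630). RFC1 was at 1.59 in H1 and 3.12 in H4 and between 5.73 and 7.37 in the other 10 pigs. ASF1B, a histone chaperone, differed by -0.48.

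Of the 11 measured G1 cyclins, their kinases and E2F factors, 5 were lower, and CCND3, a D-type cyclin, differed by -0.36 (limma adjusted p = 0.639). CDK6, a partner of D-type cyclins, differed by 0.19 and E2F2, an S phase transcription factor, by -0.18. Of the 13 measured brakes on the cycle 9 (69.2%) were lower. CDKN1A, the inhibitor p21 that halts cycling cells, was 7.39 ± 0.611 in the high and 7.93 ± 0.295 in the low group, a difference of -0.54 (SE 0.196, limma adjusted p = 0.624). CDKN1B, the related inhibitor p27, differed by 0.21 and BTG1, an antiproliferative factor, by -0.32.

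Markers of cells that could carry these transcripts were set beside them. The mean of 13 measured crypt stem and progenitor markers lay between 6.70 and 7.14 in the high and between 6.70 and 7.07 in the low group. It correlated with the mitotic mean at r = 0.017 over the 12 pigs, and at 0.450 without L2 and H1. The 6 measured germinal centre B cell markers correlated with the mitotic mean at 0.124 and with the S phase mean at 0.481. Leaving out the 2 pigs farthest in each mean gave 0.276 and 0.749. Of these 6 markers 1 lay near the floor of the scale. The 8 measured B cell markers correlated with the S phase mean at 0.519, and at 0.597 without L2 and L6. Of 12 measured T and cytotoxic cell markers 10 (83.3%) were lower in the high group, against 57.2% of all genes tested, and 3 of the 12 were lower at an unadjusted p under 0.05, against 4.35%. Their mean ran from 7.05 in H1 to 7.85 in H6 and from 7.45 to 7.80 in the low group. It correlated with the mitotic mean at 0.543, and at 0.113 without L2 and H1. Of 15 measured enterocyte markers 13 (86.7%) were lower, with a median of -0.28 and 1 at an unadjusted p under 0.05 (ANPEP). Their mean correlated with the mitotic mean at 0.199, and at -0.745 without L2 and H1. Of 8 measured macrophage and dendritic cell markers 7 were lower, with a median of -0.19 and none at an unadjusted p under 0.05, and their mean correlated with the mitotic mean at 0.320. The part of these cells in the mitotic values was not tested.

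Among all other genes tested, those whose values over the 12 pigs were most like the mitotic mean were NANP (r = 0.915), NUP37 (0.911), TMED5 (0.887), CCT8 (0.877), PTGES3 (0.871), VBP1 (0.865), MTFR2 (0.865) and ILDR1 (0.853). Those that ran most against it were GPAT2 (-0.850), HMCN2 (-0.847), MAP6D1 (-0.846), MIR1839 (-0.843), DVL1 (-0.843), LOC100520032 (-0.841), ZNF683 (-0.820) and GRK5 (-0.817). These genes were picked for that correlation, so their r values are descriptions. Without L2 the r of NANP was 0.905 and that of NUP37 was 0.812.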

How the data were processed

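RNA of jejunal mucosa from 12 pigs was measured on 1-colour Affymetrix Snowball arrays, 1 per pig. The authors deposited log2 values, 1 per probe set and array. GCOS 1.1.1 is named in the submitters' processing notes. Background correction, summarization and normalization: not given in the sources used here. Array medians ran from 4.02 to 4.16, so no new normalization was applied. The 69 background control probe sets, averaged by GC class, ran from 1.26 to 7.66, so signal depends on base composition and levels are not compared between genes. Arrays have no read depth, and their number limits the precision.

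Of 47845 probe sets, 123 controls were left out, and the 35791 with a mean above the 25th percentile were tested. Symbols came from the platform annotation, with 264 updated through RefSeq synonyms (Sscrofa11.1), and no coordinates are given. Of the 47722 probe sets without controls 26426 had 1 symbol, 0 had several and 21296 were unnamed here. No 2 arrays were identical. The labels give separate pigs.

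Linear models (limma 3.58.1, R 4.3.3) had feed efficiency and sex as additive terms (9 residual degrees of freedom), or the 4 sex and group means (8) for the interaction and the differences within each sex. Benjamini-Hochberg adjustment ran over all probe sets tested, with a threshold of 0.05. The fit was tested on simulated data. Alternatives changed the filter, normalization, sex term, array weights, array spread, choice of probe set, or left out 1 pig.

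The genes and lists were chosen with earlier results of these data known. The genes picked for more detail were given by pig or by the range in each group. They were the 3 of lowest p, the 2 of highest mean and the 2 of largest SD in each class. Added to these were the lowest p for sex and for the interaction, and MKI67, TOP2A, PCNA and MCM2. Genes of other lists were up to 3 of lowest p, and genes most and least like the mitotic mean were 8 each. A description of promoter motifs was planned and not run, as promoter sequences were not used here.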

Additional observations from a re-analysis of the deposited data

Results flagged for a closer look

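Among 80 groups of 6 pigs (each gene and class mean in each feed efficiency group), 3 held a pig whose gap to the nearest other pig was too large a share of the group's range by Dixon's 95% critical value. Chance flags about 1 in 20 groups. TYMS stood at 7.94 in L2 against 7.35 to 7.57 in the other low pigs. CDK1, read from its brightest probe set, stood at 5.34 in H1 against 6.67 to 7.39 in the other high pigs. CENPE stood at 5.54 in L1 against 3.84 to 4.30 in the other low pigs. For none of the 38 were males and females separated in opposite directions.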

How the results depend on the processing

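No probe set passed the adjusted threshold for feed efficiency under any of 19 alternatives, and the lowest adjusted p of the 10 genes followed was 0.293 (NDC80). The median difference stayed between -0.08 and 0.02 log2 units for the S phase genes and between -0.26 and -0.02 for the mitotic genes. The number of genes at an unadjusted p under 0.05 for feed efficiency was 4, became 1 with array spread in the model, and was 1 to 7 with 1 pig left out. For sex it was 0, and became 1 after quantile normalization, 3 with array weights and 1 with array spread, and 0 to 4 with 1 pig left out. For the interaction it was 0, and became 2 with array spread, 1 with the mean over a gene's probe sets and 2 with the probe set of largest SD, and 0 to 3 with 1 pig left out (3 without H3). In males it was 5, became 1 with array spread, and was 2 to 7 with 1 pig left out. The correlation of the class means was 0.497 to 0.787 with 1 pig left out.

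Among the 10 genes followed through all alternatives, the difference changed sign for PCNA after quantile normalization (0.0208), for MCM2 (0.142), MKI67 (0.0852) and RRM2 (0.0969) with array spread, and for MCM7 with the probe set of largest SD (0.312). With 1 pig left out MCM2 ran from -0.141 to 0.0547 and MKI67 from -0.197 to 0.0107. With array spread, 13 of all 38 genes changed sign: MCM2, MCM4, MCM5, CDC6, GINS1, FEN1, RRM2, CCNE1, AURKA, CENPF, KIF11, NUSAP1 and MKI67. The cause was not tested. No paired analysis was possible because the labels give no replicate numbers shared between the groups. Precision is limited by 6 pigs per group, and several genes rest on probe sets that differ from one another.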
